A study of Bos taurus with 13 samples.

Results

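A set of 96 genes, of 16595 in the table (0.578%), was higher after 6 h of heat and was still, or again, higher when the heated cells had been returned to 37 °C for 66 h. The cells were mesenchymal stem cells, adherent multipotent stromal cells, grown as primary cultures from bovine umbilical cord and used at passages 2 to 4. Polyadenylated RNA was sequenced in 13 libraries of 5 groups, and the treatments began a day after seeding. The 6 h control (n = 3) stayed at 37 °C, while the 6 h heat group (n = 3) was kept at 40.5 °C. Others were held for 3 days at 37 °C (3-day control, n = 2) or for 3 days at 40.5 °C (3-day heat, n = 3). The recovery group (n = 2) had 6 h at 40.5 °C followed by 66 h at 37 °C, per the titles, and its control is the 3-day control. The series text instead speaks of 3 days of recovery, and the titles were followed here. In such bulk samples a change in the number of cells of a type and a change in RNA per cell cannot be told apart. All groups shared the same medium with fetal bovine serum, and no genetic change is given. The labels do not say whether replicates came from separate animals or cultures, so the p-values below measure the spread between these libraries, which may be technical.

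When cells are heated, heat shock factors bind promoters and switch on genes for chaperones, proteins that refold or shield damaged proteins. In many cell types these transcripts fall again after return to normal temperature. Mesenchymal stromal cells of the umbilical cord are known for differentiation into bone, cartilage and fat cells and for secreted factors that act on neighbouring cells. The table gives Ensembl gene identifiers only, and no names were assigned to them here. Whether chaperones, matrix genes or cytokines were among the 96 genes was therefore not analysed, and neither were the markers of stromal or other cell types. Members are described by their levels and patterns, and 4 are given by identifier.

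The members were selected on the measured 6 h and recovery differences. These are differences between group means of the authors' normalised values on the log2(value + 1) scale. A member had a mean value from 50 to under 20000 over the 13 libraries, a difference of at least 0.5 between 6 h heat and 6 h control, and a difference of at least 0.5 between recovery and 3-day control. Both recovery libraries also had to lie above both 3-day control libraries. Of the genes in the table, 11182 (67.4%) were within the limits on the mean. The first difference was met by 1030 of these (9.21%) and the second by 306 (2.74%). Both were met by 96 genes, which are 9.32% of the first list and 31.4% of the second, and none of the 96 was removed by the condition that the libraries be separate. Among the 8818 genes whose 6 h difference lay between -0.5 and 0.5, the recovery difference was met by 181 (2.05%). Among the 1334 genes with a 6 h difference of -0.5 or less it was met by 29 (2.17%). The 6 h and the recovery differences share no library.

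**Figure D1:**
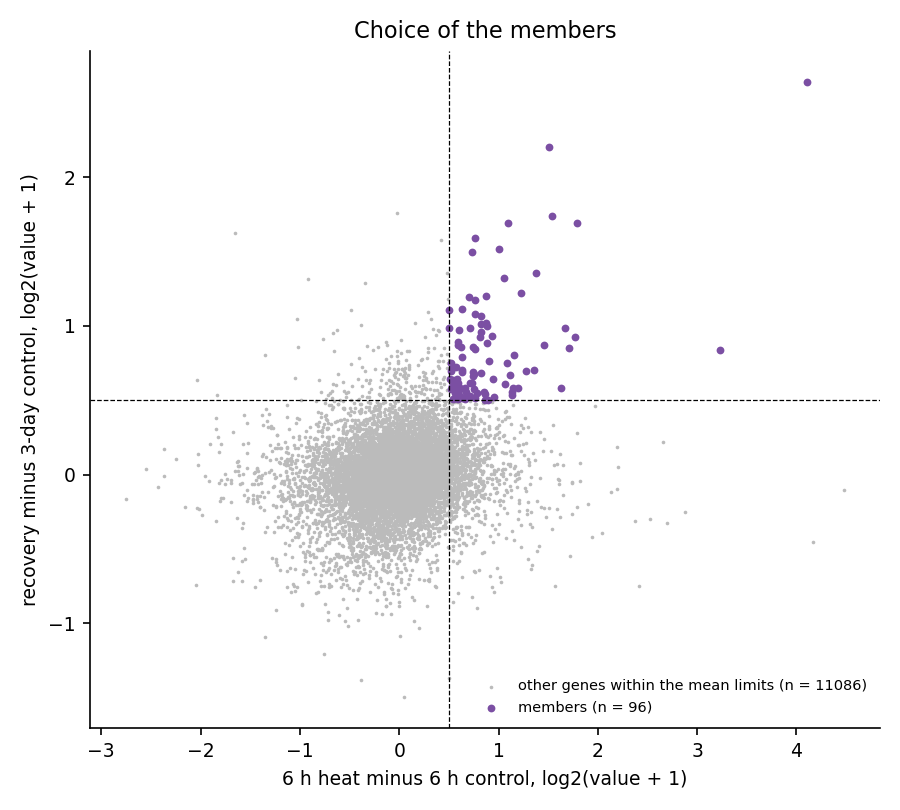
Each point is a gene with a mean normalised value from 50 to under 20000. The x axis gives 6 h heat minus 6 h control and the y axis recovery minus 3-day control, both on the log2(value + 1) scale, and dashed lines mark the threshold of 0.5. The 96 members fill the upper right corner by construction, and most lie near its edges, with 25 under 0.7 on both axes.

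Because those values chose the members, the sizes of the 6 h and recovery differences are a description and were not tested. The 6 h difference had a median of 0.76 over the members, with quartiles of 0.60 and 1.02 and a highest value of 4.11. The recovery difference had a median of 0.70, quartiles of 0.58 and 0.98 and a highest value of 2.64. It was larger than the 6 h difference in 46 of the 96 members, and 9 members had both differences at 1 or more. The standard error from limma had a median of 0.17 for the 6 h and of 0.21 for the recovery difference, and the difference was under 2 standard errors in 7 and 18 members. Of the members, 79 (82.3%) passed an adjusted p of 0.05 in limma as higher at 6 h, where 14.8% of 13684 tested genes did. As higher after recovery 33 (34.4%) passed, where 0.643% of tested genes did. The rule used both contrasts, so these counts only show how much of the set lay beyond the model's spread.

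Members near the edge of the rule differed little from genes just outside it. The 3 members with the smallest recovery difference had 0.501, 0.504 and 0.506. The 3 nearest genes that met the 6 h condition but not this one had 0.496, 0.492 and 0.490, and in all 3 the recovery libraries also lay above the control libraries. On the 6 h difference the members nearest the threshold had 0.501, 0.502 and 0.512. The genes nearest outside, which met the recovery conditions, had 0.499, 0.491 and 0.487.

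Members ranged widely in level. Mean normalised values, which count reads and are not adjusted for transcript length, ran from 52.6 to 19162 with a median of 427, against a median of 671 for the 11182 genes within the limits. The 5 most abundant members held 45.1% of the set's summed mean value. Depth was 14859428 to 39117065 recovered reads per library. Libraries of the 6 h groups with the same number shared deviations from their group means. Across genes, these had r = 0.514, 0.499 and 0.721 between control and heat for replicates 1, 2 and 3, and the labels name no batch. The main limma fit did not pair libraries by number, so its standard errors include that shared spread. The lowest library of a member held 5 reads at the least and 150.5 reads in the median, and 18 members had under 30 reads in some library, so counting error adds to the spread of those genes.

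In 80 of 96 members (83.3%) every 6 h heat library lay above every 6 h control library, as did 20.6% of tested genes. The choice by the 6 h difference favours such separation, and 827 of the 934 other genes raised at 6 h (88.5%) showed it too. Between libraries with the same replicate number, the median 6 h difference over the members was 0.83, 0.76 and 0.76 for the numbers 1, 2 and 3. The difference was above 0 in all 96 members for each number, which that choice also favours. Single members varied more between these pairs, as the values below show.

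The recovery difference rested on 2 libraries in each group, and the 3-day control libraries were unlike each other in these genes. Relative to the mean of the 6 h control, the median member stood at 0.47 in replicate 1 of the 3-day control and at 0.20 in replicate 2 on the log2 scale. Replicate 2 was below replicate 1 in 75 members (78.1%), where the share over all genes within the limits was 47.4%. In the recovery group replicate 1 stood at 1.20 and replicate 2 at 1.07, and replicate 2 was the lower in 81 members (84.4%), against 46.5% of genes within the limits. The part of these library differences in the recovery difference was not tested. The rule fixed that recovery lay above each control library. It also required the mean of the differences from the 2 control libraries to be at least 0.5, so their sizes are a description too. Against replicate 1 of the 3-day control alone, the recovery mean was higher by 0.17 at the least and 0.66 in the median, and by at least 0.5 in 70 members. Against replicate 2 alone the lowest difference was 0.21 and the median 0.86, with 83 members at 0.5 or more. The gap between the lowest recovery library and the highest 3-day control library had a median of 0.49 and was under 0.2 in 9 members.

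**Figure D2:**
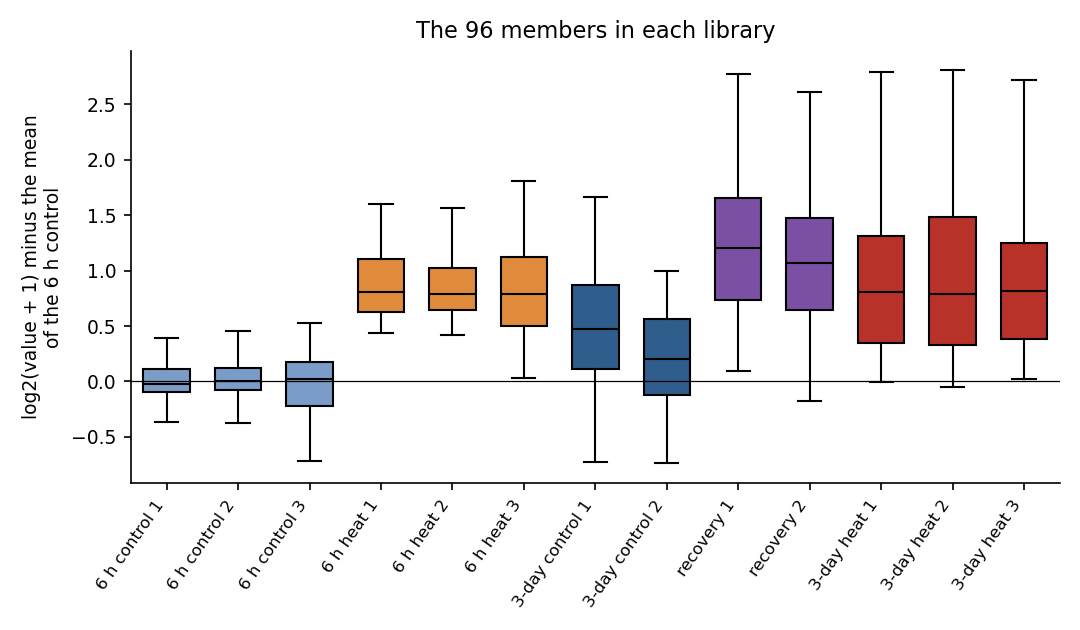
Boxes show the 96 members in each of the 13 libraries, as log2(value + 1) minus the member's mean in the 6 h control. Lines mark the median, boxes the quartiles and whiskers the range from 5% to 95% of members. The 3 libraries of the 6 h heat group have medians of 0.79 to 0.80, those of 3-day heat 0.78 to 0.81, the recovery libraries 1.20 and 1.07, and the 3-day control libraries 0.47 and 0.20.

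The summed value of the members, which the most abundant genes dominate, was also taken as a share of each library. It was 0.311% ± 0.00452 (SD, n = 3) of all values in the 6 h control and 0.613% ± 0.00856 (SD, n = 3) with 6 h of heat. In the 3-day control it was 0.392% ± 0.0853 (SD, n = 2), from 0.332% and 0.452% in the separate libraries. The recovery group had 0.796% ± 0.0751 (SD, n = 2), and 3-day heat 0.513% ± 0.0269 (SD, n = 3). By this sum 6 h heat was above 3-day heat, whereas the library medians of these groups overlapped. Without the 5 most abundant members the shares were 0.18%, 0.318%, 0.222%, 0.416% and 0.301% in the same order.

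Most members stood higher in the recovery group than directly after heat. The recovery mean was above the 6 h heat mean in 67 of 96 members, with a median difference of 0.29 and a range from -1.97 to 3.11. Every recovery library was above every 6 h heat library in 50 members (52.1%), as it was in 36.4% of tested genes, and below in 16 members (16.7%), as in 34.8%. The controls differed too. The 3-day control was above the 6 h control in 73 members, by 0.34 in the median, while the median over genes within the limits was -0.03. These differences join groups harvested at different times and come from groups the rule used, so they are given as values. Among the 934 genes that met the 6 h condition and not the recovery condition, 115 (12.3%) had the recovery mean above the 6 h heat mean, with a median difference of -0.65. The rule sets those genes apart from the members on this measure.

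ENSBTAG00000050861 had the largest difference after recovery. Its normalised values were 9.03, 4.91 and 10.3 in the 6 h control and 142, 147 and 162 with 6 h of heat. They were 25.2 and 14.1 in the 3-day control and 161 and 94.1 in the recovery group. With 3 days of heat they were 19, 15.5 and 17.8. The heated 6 h libraries and the recovery libraries thus lay far above all others and overlapped with each other, and the 3-day heat libraries lay within the range of the 3-day control. On the log2 scale the difference was 4.11 (SE 0.30) at 6 h and 2.64 (SE 0.37) after recovery. The lowest 6 h control library held 6 reads of this gene.

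ENSBTAG00000022028 had the next largest recovery difference, 2.20 (SE 0.64) on the log2 scale. Its recovery values were 210.0 and 162, against 54.7 and 28.2 in the 3-day control. At 6 h its values were 39.7, 20.1 and 113 with heat and 10.2, 15.5 and 21.8 without. Here the 6 h groups overlapped, since replicate 2 with heat was below replicate 3 of the control. Between libraries with the same number, however, the heat value was always the higher. The 6 h difference of 1.51 had a standard error of 0.52, from a fit without such pairs. With 3 days of heat the values were 46.7, 46.6 and 78.9, a difference from the 3-day control of 0.49 (SE 0.59, limma adjusted p 0.532). That difference was 0.96 without replicate 1 of the 3-day control and 0.03 without replicate 2.

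The most abundant member had values of 11526, 11217 and 12916 in the 6 h control and 25425, 24919 and 28860 with 6 h of heat. The values were 15329 and 12449 in the 3-day control, 25188 and 23072 in the recovery group and 18903, 18680 and 20614 with 3 days of heat. No group overlapped with its own control, and 3-day heat lay between the 3-day control and recovery. The next most abundant member showed how far the 3-day control libraries could part. Its values there were 11930 and 6530, against 32866 and 26405 in the recovery group, 2.9-fold higher at 6 h of heat and 3.34-fold higher after recovery. With 3 days of heat it had 11194, 11512 and 13320, a range that included the higher control library.

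The least certain kind of member is shown by the gene with the largest rise between the 2 control groups. Its values were 22.3, 32.7 and 5.73 in the 6 h control and 45.1, 32.7 and 10.3 with 6 h of heat. Replicate 3 was the lowest library in both groups, which overlapped, and the 6 h difference of 0.58 had a standard error of 0.66. Compared by number, heat was higher in replicates 1 and 3 and nearly the same as the control in replicate 2. In the 3-day control it had 115 and 158, and in the recovery group 238 and 208.

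The 3-day heat group was the only group the rule used in nothing but the mean level, so the response to continued heat is the nearest to an independent readout of these genes. Its control, however, was the 3-day control, which the rule required to lie below recovery and which the recovery difference shares. Low values in those libraries favour a positive difference in both comparisons. The 3-day heat group also had a replicate 3 and the 3-day control had none, so whatever sets that replicate apart enters the difference. After 3 days at 40.5 °C, 47 of 96 members (49%) were higher and 2 (2.08%) lower by an adjusted p of 0.05 in limma. Of all 13684 tested genes 20.1% were higher and 20.3% lower. The other 47 members did not pass, with differences from -0.55 to 1.24. The median difference was 0.49 over the members and 0.01 over the genes within the limits, and the difference was positive in 77 members (80.2%). In 57 members (59.4%) every 3-day heat library lay above every 3-day control library, as in 32.2% of tested genes, and in 4 (4.17%) every library lay below, as in 32.9%.

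The count of higher members rested in part on replicate 2 of the 3-day control. Without that library 31 members were higher and 6 lower, while the shares over all tested genes fell to 15.4% higher and 13.9% lower. Without replicate 1 of that group 46 were higher and 1 lower, with 12.2% of all tested genes higher and 12.2% lower. The list changed more than this count, since only 36 of these 46 were among the 47 higher with all libraries. With the whole group replaced by replicate 1 the median difference was 0.35, and by replicate 2 it was 0.60. Within replicates 1 and 2 of all groups, 56 members were higher and 5 lower, and the shares over all tested genes rose to 26.7% and 28.8%. With only replicate 3 of 3-day heat left out, 43 members were higher and 1 lower, where 17.3% and 18% of all tested genes were.

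Other genes raised at 6 h give a comparison. Of the 934 genes that met the 6 h condition but not the recovery condition, 571 (61.1%) were higher after 3 days of heat and 24 (2.57%) lower, with a median difference of 0.53. The share of members was lower, 49%, with a close median difference of 0.49, and the rule favoured low 3-day controls in them. At a mean level under 200 the members had the higher share, 65.7% against 47.1%. From 200 to under 1000 and at 1000 or more they had the lower share. To avoid the shared control, 3-day heat was set against the 6 h control, which the rule used alike for both sets. The median of that difference was 0.82 for the members and 0.54 for the other genes raised at 6 h. Every 3-day heat library lay above every 6 h control library in 75 members (78.1%) and in 659 of the 934 others (70.6%), against 29.3% of tested genes. This last difference includes time in culture. The 3-day control was above the 6 h control by 0.34 in the median over the members and by 0.03 over the other genes raised at 6 h. No test compared the sets.

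**Figure D3:**
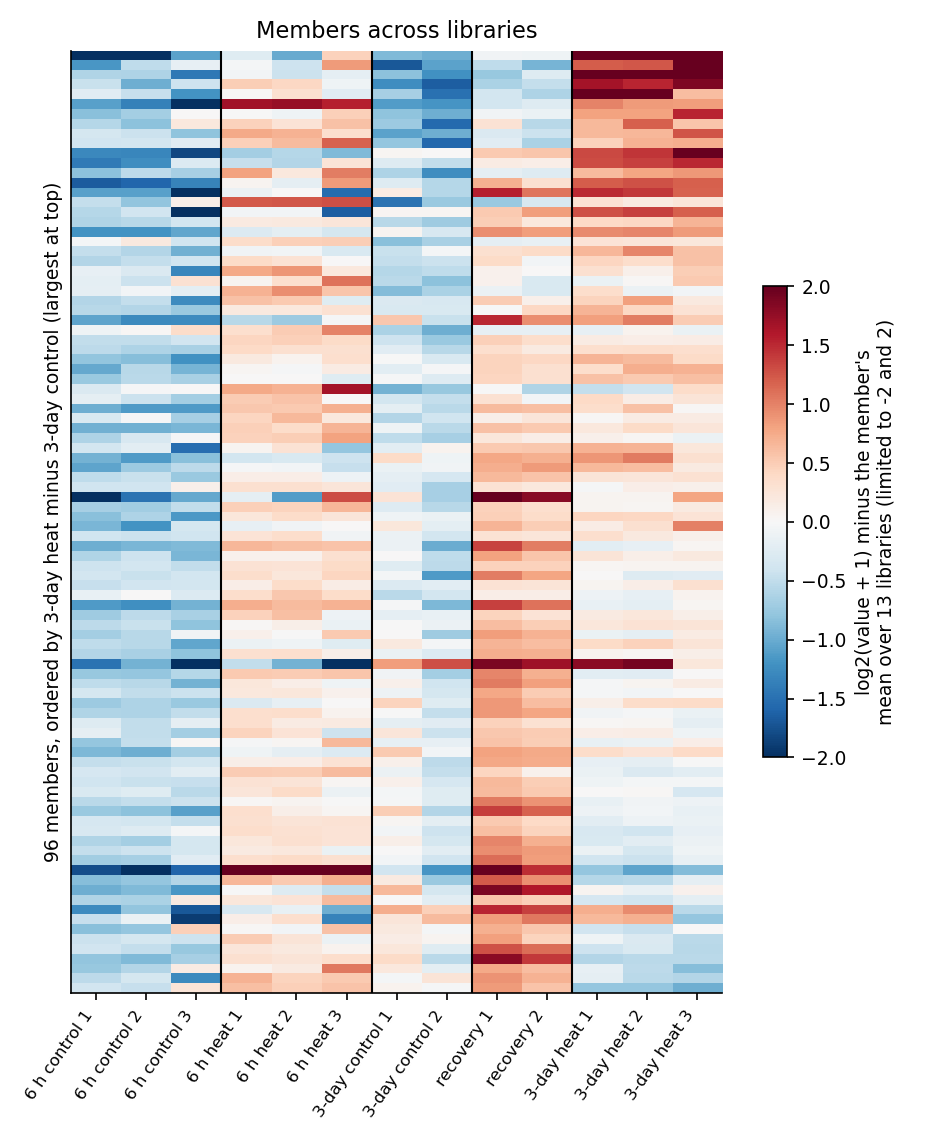
Rows are the 96 members, ordered by 3-day heat minus 3-day control with the largest at the top, and columns are the 13 libraries. Colour gives log2(value + 1) minus the member's mean over the libraries, limited to -2 and 2. The upper rows are highest with 3 days of heat, the lower rows are highest in the recovery libraries, and the 6 h control is the lowest group in 71 rows.

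The members fell into unlike patterns with continued heat. The group mean was highest in recovery for 52 members, in 3-day heat for 25 and in 6 h heat for 19. It was lowest in the 6 h control for 71, in the 3-day control for 22 and in 3-day heat for 3. Every 3-day heat library was below every recovery library in 53 members (55.2%), as in 33.7% of tested genes, and above in 21 (21.9%), as in 33%. The rule chose high recovery values, which favours the former. Differences of at least 1 after 3 days of heat were seen in 19 members, from 0.5 to under 1 in 26, between -0.5 and 0.5 in 48 and of -0.5 or less in 3.

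The 19 members with a difference of at least 1 had a median mean level of 123 and a median recovery difference of 0.75. The 3-day heat mean was above the recovery mean in all 19. For those with a recovery difference under 1 this followed by construction, since both differences share the 3-day control. The 48 members between -0.5 and 0.5 had a median level of 711 and a median recovery difference of 0.82. Their 3-day heat mean lay below the recovery mean by construction, since every member had a recovery difference of at least 0.5 from the same control. These classes were drawn after the values were seen.

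The member with the largest difference after 3 days of heat had values of 509, 405 and 499, against 33 and 30.8 in the 3-day control. This was a log2 difference of 3.84 (SE 0.44, limma adjusted p 0.000107), or 14.3-fold. Its recovery values were 58.7 and 57.8, a difference of 0.85 (SE 0.49), so continued heat gave 7.93-fold the recovery level. At 6 h it had 51.8, 30.2 and 85.5 with heat and 12.6, 9 and 28.7 without. Each heated 6 h library exceeded each control library there, and replicate 3 was the highest in both groups.

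Another member, of intermediate level, had 2152, 2030 and 1974 with 3 days of heat and 265 and 203 in the 3-day control. The difference was 3.14 (SE 0.24, limma adjusted p 8.17e-06). Its recovery values were 277 and 393, the lower of them close to the higher control library, and its recovery difference of 0.51 was near the threshold of the rule. A further member had 5641, 5742 and 5267 with 3 days of heat and 5561 and 5246 after recovery, so that these groups overlapped. Its 3-day control had 3033 and 2351, and the difference with 3 days of heat was 1.05 (SE 0.10, limma adjusted p 3.89e-05). All 3 were singled out after their values were seen.

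The members that were lower after 3 days of heat were 2, and both are given by identifier. ENSBTAG00000000009 had values of 119, 119.9 and 103 with 3 days of heat and 214 and 203 in the 3-day control. It fell by 0.87 on the log2 scale (SE 0.19, limma adjusted p 0.00443). Its recovery values were 369.6 and 305, above all 3-day control and 3-day heat libraries. At 6 h it had 310.0, 287 and 306 with heat and 156, 149 and 245 without. Every heat library thus lay above every control library at 6 h and below every control library at 3 days.

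ENSBTAG00000045547 had 879, 953 and 794 with 3 days of heat and 1379 and 995 in the 3-day control. It fell by 0.42 on the log2 scale (SE 0.14, limma adjusted p 0.0359). It did not pass when replicate 1 of the 3-day control was left out, where the difference was -0.19 (limma adjusted p 0.383). Nor did it pass without replicate 1 of 3-day heat, at -0.43 (limma adjusted p 0.0696), or without replicate 3, at -0.36 (limma adjusted p 0.102), where the size changed little. The recovery values were 2820 and 2552, a difference of 1.19 (SE 0.16), and the 6 h values were 1382, 1342 and 1226 with heat against 899, 839.9 and 696. Recovery was by far the highest group for this gene, and no library of 3-day heat reached a library of recovery.

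**Figure D4:**
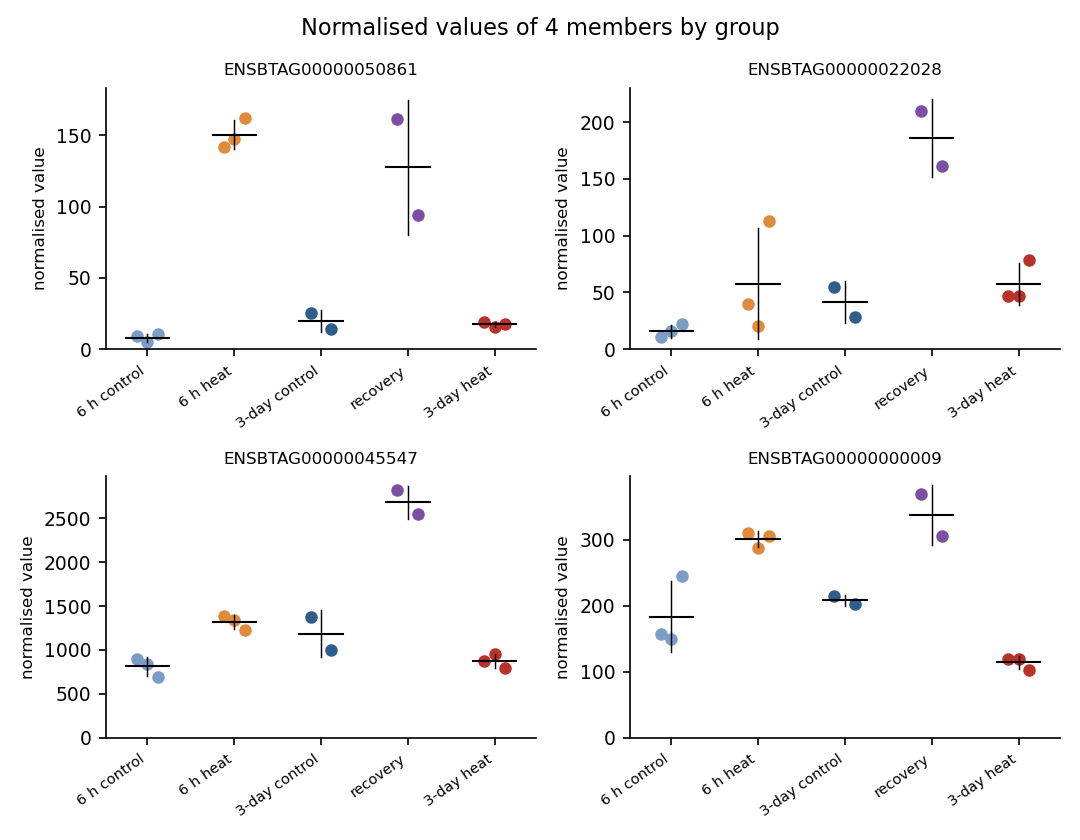
Points are the normalised values of single libraries of the 4 members given by identifier, with the group mean as a line and the SD as a vertical bar, on linear axes that start at 0. In each panel both recovery libraries lie above both 3-day control libraries and above all 3-day heat libraries. The 6 h heat libraries overlap with the 6 h control in ENSBTAG00000022028.

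The 3-day counts were also split by the size of the recovery difference and by the level. Of the 20 members at 1 or more after recovery, 3 (15%) passed as higher and 1 as lower with 3-day heat. Of all tested genes 20.1% were higher and 20.3% lower, and 20 members are too few to set apart from these shares. Their median difference was 0.22, and 11 had a mean level of 1000 or more. Of the 27 from 0.7 to under 1, 17 were higher (63%), and of the 49 under 0.7, 27 were higher (55.1%) and 1 lower. Both differences share the 3-day control, so no correlation between them is given.

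By level, 23 of the 35 members with a mean under 200 were higher after 3 days of heat (65.7%), 13 of the 35 from 200 to under 1000 (37.1%) and 11 of the 26 at 1000 or more (42.3%). The median difference was 0.77, 0.42 and 0.26 in these classes. Over the genes within the limits the higher shares were 19.1%, 23.5% and 22.9%, and over the other genes raised at 6 h 47.1%, 64.3% and 78%. The mean includes the 3-day heat libraries. Across the 96 members, the log2 mean level and the 3-day difference had r = -0.34 (Spearman's rho -0.37). The 6 h and the 3-day differences, which share no library, had r = 0.15 (rho 0.21), and the 6 h and the recovery differences r = 0.53 (rho 0.32). These are across genes, which share libraries and are not independent, and the rule cut off both variables of the last pair.

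**Figure D5:**
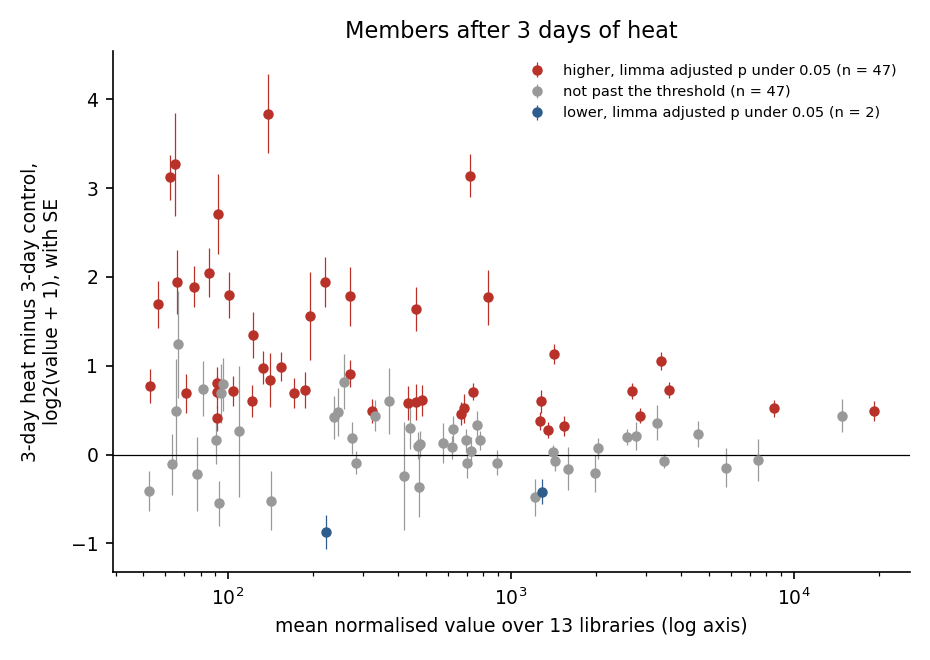
Each point is a member, placed by its mean normalised value over the 13 libraries (log axis) and by 3-day heat minus 3-day control on the log2(value + 1) scale, with its standard error from limma. The 47 members called higher reach 3.84 at low levels, and the 2 called lower are the 2 blue points at -0.87 and -0.42.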

How the data were processed

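Per the submitters' processing notes, cutadapt, STAR, HTSeq, DESeq and the build ARS-UCD1.2 were used. Versions, annotation and strand setting are not given in the sources used here. The deposited values are a normalised signal, read counts that the authors divided by a size factor per library, per the file headers and those notes. Whole reads were recovered (100% of values whole within 0.01 reads). Groups came from the sample titles. Values were fitted as log2(value + 1) with limma 3.58.1 (R 4.3.3, empirical Bayes, mean-variance trend, 5 group means, 13 libraries) for 13684 genes with a value of at least 10 in at least 2 libraries. The 1 added before taking log2 understates changes of low genes. Tests were two-sided, with Benjamini-Hochberg adjustment over all tested genes. The procedure was tested on simulated data. On recovered reads, edgeR 4.0.16 called 5538 genes and DESeq2 1.42.0 5658 genes after 3 days of heat, against 5531 in limma. Other alternatives changed the pseudocount, filter, scaling, variance model, replicate block and libraries. The members, lists and tests were chosen with earlier results of these data known. Identifiers were to be printed for the 2 members with the largest recovery difference, and the 2 lower members were added after their values were seen. Gene lists, cell markers, promoter motifs and gene positions, planned by symbol, were not analysed here.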

Additional observations from a re-analysis of the deposited data

Results flagged for a closer look

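In 4 of the 96 members (4.17%) every 6 h heat library lay above every 6 h control library while every 3-day heat library lay below every 3-day control library. The same pattern was found in 200 of the tested genes (1.46%). They are listed because heat and control libraries were fully separate in opposite directions at 6 h and at 3 days. The difference between the effects was not tested. The rule chose a positive difference at 6 h, which makes the pattern easier to meet among members. The 3-day part alone was met by 4 members (4.17%) and by 49 of the 934 other genes raised at 6 h (5.25%). ENSBTAG00000000009 was one of them, with a difference of -0.87 on the log2 scale after 3 days of heat and of 0.75 at 6 h. ENSBTAG00000045547 was another, with -0.42 after 3 days and 0.70 at 6 h.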

How the results depend on the processing

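The rule gave 89 to 104 genes under other pseudocounts, scalings and within replicates 1 and 2, with at least 86 of the 96 members kept. It gave 35 genes with both differences at 0.7 or more, 9 at 1 or more, and 229 with no limits on the mean. Leaving out each library in turn gave 89 to 110 genes, and the fewest members kept were 70, without replicate 2 of the 3-day control. The number of members higher after 3 days of heat was 45 to 57 under the alternatives that kept all or only replicates 1 and 2 of the libraries, and 31 to 46 with single libraries left out, 31 without replicate 2 of the 3-day control. The number lower was 1 without the mean-variance trend, 1 when only the 2 groups compared were fitted, 5 within replicates 1 and 2, and 1 to 6 with single libraries left out. A replicate block, the number as a factor in the fit, gave 5 lower and 57 higher members, with 26.6% of all tested genes lower and 25% higher. Libraries of 3-day heat and 3-day control with the same number deviated with r of 0.02 and 0.018, where the 6 h groups had 0.514, 0.499 and 0.721. The 2 deviations of the 3-day control mirror each other, and it has no replicate 3. These r values therefore cannot decide whether the numbers paired the 3-day libraries. The difference of ENSBTAG00000050861 after 3 days of heat, not past the threshold, lay between -0.51 and 0.29 with single libraries left out, and that of ENSBTAG00000022028 between 0.03 and 0.96. The cause of these changes was not tested. With 2 libraries in the 3-day control and recovery groups, each library carries much of the result.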
